A study of Mus musculus with 2 samples.

Results

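The 10 genes described here encode costimulatory and coinhibitory receptors of T cells: *Cd28*, *Ctla4*, *Icos*, *Pdcd1*, *Tigit*, *Cd226*, *Cd96*, *Lag3*, *Havcr2* and *Btla*. They were chosen by name from the 16830 genes of the expression table, with earlier results of these data known. All 10 were among the 10948 genes with a mean of at least 1 FPKM. FPKM counts the sequenced fragments of a gene relative to transcript length and library size. RNA was sequenced from regulatory T (Treg) cells of C57BL/6 mice aged 6 months. WT Treg cells came from *Foxp3*-YFP-Cre mice and USP21-ΔTreg cells from *Foxp3*-YFP-Cre mice that also carried *Usp21* alleles flanked by loxP sites. In both, Cre recombinase fused to yellow fluorescent protein was driven by the *Foxp3* locus, so the deletion was limited to cells that had turned that locus on. Cells positive for CD4 and YFP and high for CD25 were sorted from the spleen and lymph nodes. There was 1 library per genotype and the number of mice behind each is not given in the sources used here. The comparison therefore had no replicate check, and no test or p-value is given. Every interval below is a 95% interval that covers counting error only, not the spread between mice or libraries. Reads amplified by PCR are not independent molecules, so the intervals may be too narrow even for counting error. In bulk RNA, fewer cells of a type and less RNA per cell cannot be told apart.

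These receptors tune the T-cell receptor signal when a T cell meets an antigen-presenting cell. CD28 and CTLA-4 bind the same ligands, CD80 and CD86, with opposite effects, and CTLA-4 has the higher affinity and removes the ligands from the surface of other cells. Treg cells are known for high CTLA-4, which they use for suppression. ICOS, encoded beside them on chromosome 1, binds ICOS ligand and signals mainly through phosphoinositide 3-kinase. CD226, TIGIT and CD96 form a second such set that competes for the poliovirus receptor and nectins, with CD226 costimulatory and TIGIT inhibitory. PD-1, BTLA, LAG-3 and TIM-3, the products of *Pdcd1*, *Btla*, *Lag3* and *Havcr2*, are inhibitory receptors that mark activated or chronically stimulated T cells.

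The libraries held 23198432 fragments for WT Treg and 23418573 for USP21-ΔTreg cells, of which the 10 receptor genes took 64359 (0.277%) and 67238 (0.287%). *Usp21* stood at 11.8 FPKM in the WT library and 4.56 in USP21-ΔTreg cells, a ratio of 0.381 on scaled counts (0.321 to 0.451). *Foxp3*, the Treg lineage factor, stood at 91.8 and 55.2 FPKM. *Il2ra*, which encodes the CD25 used in the sort, stood at 168 and 19.3 FPKM. Of 5 Treg markers, *Foxp3* and *Il2ra* among them, 1 was past 2-fold higher on FPKM, *Nrp1* at 50.3 and 114. *Il2ra* was the 1 past 2-fold lower, and 3 lay between, *Ikzf2* at 186 and 220 FPKM among them. On scaled counts 0 Treg markers were past 2-fold higher and 1 was past 2-fold lower. *Cd4* stood at 133 and 204 FPKM and *Cd3e*, a chain of the T-cell receptor complex, at 79.3 and 131. The summed FPKM of 8 markers of NK and CD8 T cells was 22.2 in the WT library and 60.1 in USP21-ΔTreg cells, and that of 7 B cell markers was 11.7 and 28.6. Among these, *Klrd1* had 11 and 198 fragments, *Cd8a* 84 and 381, and the defining NK receptor gene *Ncr1* 1 and 7. On FPKM, 2 of the 5 NK and CD8 T cell markers that passed the level filter and 4 of the 5 B cell markers were past 2-fold higher. Of all 10948 genes that passed it, 7.78% were at least 2-fold higher on FPKM and 6.2% at least 2-fold lower. Of 7 myeloid markers, summed at 4.09 and 8.91 FPKM, 1 passed the filter, *Lyz2* at 2.03 and 6.41. The 4 erythroid markers that passed were split, 2 past 2-fold higher and 2 past 2-fold lower. None of the markers listed was at 0 in both libraries. Their part in the receptor values was not tested.

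Promoters are shown for the receptor with the highest level and nearly equal FPKM in both libraries, *Ctla4*, and for 3 receptors past 2-fold higher on FPKM in the USP21-ΔTreg library, *Pdcd1*, *Tigit* and *Cd96*. RefSeq promoters on GRCm38.p6 matched by symbol for 6 of the genes used here, and the 250 bases before each start site were searched on both strands. The motifs were NFAT (GGAAA), AP-1 (TGANTCA), STAT (TTCNNNGAA), forkhead (TGTTTAC), TCF (CTTTGA) and RUNX (TGTGGT). Capitals mark the matches, and each sequence is written 5′ to 3′ on the strand of its gene. The windows are chr1:60908775-60909024 on the plus strand for *Ctla4*, and on the minus strand chr1:94052554-94052803 for *Pdcd1*, chr16:43664185-43664434 for *Tigit* and chr16:46120249-46120498 for *Cd96*.
Ctla4: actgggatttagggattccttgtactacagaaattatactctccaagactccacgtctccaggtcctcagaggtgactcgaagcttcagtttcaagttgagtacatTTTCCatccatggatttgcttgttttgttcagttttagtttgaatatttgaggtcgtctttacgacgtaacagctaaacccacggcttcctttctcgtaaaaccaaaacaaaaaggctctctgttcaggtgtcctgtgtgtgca
Pdcd1: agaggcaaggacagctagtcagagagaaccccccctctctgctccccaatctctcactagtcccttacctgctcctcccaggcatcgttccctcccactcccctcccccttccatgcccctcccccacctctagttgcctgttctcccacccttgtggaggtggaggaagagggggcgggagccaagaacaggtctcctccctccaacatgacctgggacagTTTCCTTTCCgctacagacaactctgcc
Tigit: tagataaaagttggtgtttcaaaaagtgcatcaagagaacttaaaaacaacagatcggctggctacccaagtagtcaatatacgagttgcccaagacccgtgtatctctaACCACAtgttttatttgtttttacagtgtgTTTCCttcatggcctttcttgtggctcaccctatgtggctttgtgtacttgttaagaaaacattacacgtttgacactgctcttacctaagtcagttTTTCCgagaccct
Cd96: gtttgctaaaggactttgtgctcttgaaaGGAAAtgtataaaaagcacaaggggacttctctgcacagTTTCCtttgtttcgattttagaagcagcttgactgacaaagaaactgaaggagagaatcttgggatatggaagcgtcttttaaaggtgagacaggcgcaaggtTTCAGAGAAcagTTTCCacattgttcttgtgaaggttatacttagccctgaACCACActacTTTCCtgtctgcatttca
The capitals in *Ctla4* are 1 NFAT match and those in *Pdcd1* are 2. *Tigit* had 2 NFAT matches and 1 RUNX match. *Cd96* had 4 NFAT matches, 1 RUNX match and 1 STAT match. No matches of different motifs overlapped in the windows shown. Of 32851 promoter windows of this length, 55.6% held the NFAT letters, 14.0% the RUNX letters and 7.02% the STAT letters, so the NFAT letters are common in promoters at large. AP-1 letters were in 6.75% of windows, forkhead letters in 3.17% and TCF letters in 13.8%, and none of these 3 was in the 4 windows shown. The GC content of the windows was 42.4% for *Ctla4*, 60.4% for *Pdcd1*, 40.0% for *Tigit* and 41.2% for *Cd96*. Of the windows not shown, that of *Havcr2* held 1 AP-1 and 1 RUNX match and that of *Btla* held 1 RUNX match. A match of letters is a description of the sequence and does not show binding.

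On FPKM, *Cd96*, *Tigit*, *Cd28* and *Pdcd1* stood at least 2-fold higher in the USP21-ΔTreg library and no receptor was at least 2-fold lower. The 4 of 10 stand beside 7.78% of all 10948 genes, and the 0 of 10 that were lower beside 6.2%. These differences are log2 ratios of FPKM + 0.1, and their median over the 10 receptors was 0.20, the same as the median of all genes. Relative to that shift of all genes, the values were 1.40 for *Cd96*, 0.94 for *Tigit*, 0.93 for *Cd28* and 0.83 for *Pdcd1*, so only *Cd96* remained past 2-fold. The deposited counts had been scaled between the libraries by another factor, and on them the median of all genes was −0.01. On these scaled counts, with 1 fragment added to each value, *Cd96* alone of the 10 was at least 2-fold higher, beside 4.34% of genes, and *Icos* and *Havcr2* were at least 2-fold lower, beside 7.93%. *Tigit* lay at the limit there, with a ratio of 2.0004 before the fragment was added and a log2 ratio of 0.999 after it. *Cd96* was thus clearly past 2-fold on both scales. *Cd28* was among the genes that the study singled out from these libraries, so its value is not independent evidence of a direction.

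**Figure D1:**
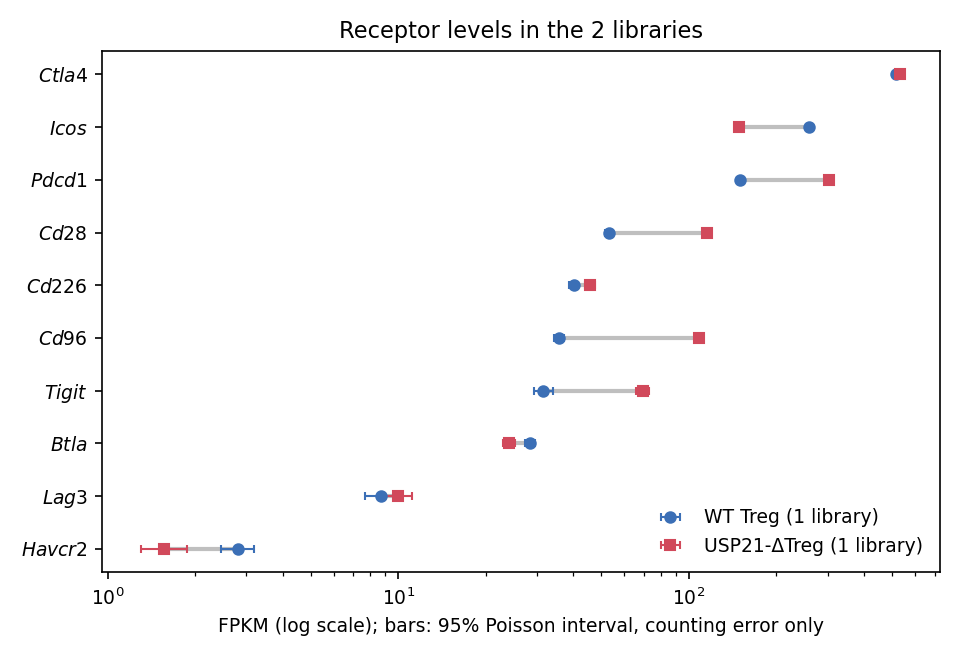
FPKM of the 10 receptor genes in the WT Treg and the USP21-ΔTreg library on a log axis, with bars for the 95% Poisson interval of the fragments (counting error only, 1 library per genotype). The levels run from 1.56 FPKM for *Havcr2* to 532 for *Ctla4*, both in USP21-ΔTreg cells, and *Cd96* has the widest gap between the libraries.

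*Cd28*, *Ctla4* and *Icos* lie side by side on the plus strand of chromosome 1 (mm10) and differed from one another in direction. *Cd28* lies at positions 60746388 to 60773359, *Ctla4* follows after 135665 bases at 60909025 to 60915832, and *Icos* after another 62081 bases at 60977914 to 61000321. *Cd28*, the main costimulatory receptor of naive T cells, stood at 53.0 FPKM in WT Treg cells (5759 fragments) and 115.6 in USP21-ΔTreg cells (9947 fragments). Its ratio was 2.18 on FPKM + 0.1 and 1.54 on scaled counts (1.49 to 1.59), above 1 on both scales and past 2-fold on the first only. *Ctla4* stood at 516 FPKM in WT Treg cells (23026 fragments) and 532 in USP21-ΔTreg cells (20388 fragments). The ratio of *Ctla4* was 1.03 on FPKM + 0.1 and 0.789 on scaled counts (0.775 to 0.805), so its direction depended on the scale. *Icos*, the costimulatory receptor of activated and follicular T cells, stood at 259 FPKM in WT Treg cells (19546 fragments) and 149 in USP21-ΔTreg cells (9152 fragments). The ratio of *Icos* was 0.576 on FPKM + 0.1 and 0.417 on scaled counts (0.407 to 0.428), lower on both scales. In GENCODE M21, *Icos* overlaps the unclassified gene model *Gm37039* on its own strand, for which no value was used here.

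The scale between libraries drops out when 1 receptor is divided by another within each library. *Cd28* stood at 0.205 of *Icos* per transcript length in the WT library and at 0.777 in USP21-ΔTreg cells, and the ratio of their fragments was 3.69 times as high (3.54 to 3.84). *Cd28* relative to *Ctla4*, its competitor for CD80 and CD86, was 0.103 on FPKM in the WT library and 0.217 in USP21-ΔTreg cells. In fragments that ratio was 1.95 times as high (1.88 to 2.03). *Icos* relative to *Ctla4* was 0.501 on FPKM in the WT library and 0.280 in USP21-ΔTreg cells, and the fragment ratio was 0.529 times that in WT (0.513 to 0.546). The balance within the chromosome 1 cluster thus stood toward *Cd28* and away from *Icos* in the USP21-ΔTreg library, by more than the counting error.

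*Pdcd1* lies far from the others on the minus strand of chromosome 1, at 94038305 to 94052553, and encodes PD-1, which recruits the phosphatase SHP-2 to the CD28 and T-cell receptor complexes. It stood at 149 FPKM in WT Treg cells (7148 fragments) and 304 in USP21-ΔTreg cells (15412 fragments). Its ratio was 2.03 on FPKM + 0.1 and 1.92 on scaled counts (1.87 to 1.98), a like size on both scales on either side of the 2-fold limit. *Btla*, on the plus strand of chromosome 16 at 45224337 to 45252895, encodes an inhibitory receptor that binds the TNF receptor HVEM. *Btla* stood at 28.3 FPKM in WT Treg cells (2544 fragments) and 24.0 in USP21-ΔTreg cells (1727 fragments). The ratio of *Btla* was 0.846 on FPKM + 0.1 and 0.605 on scaled counts (0.569 to 0.644). The 2 inhibitory receptors therefore stood in opposite directions, and *Btla* relative to *Pdcd1* was 0.190 on FPKM in the WT library and 0.0788 in USP21-ΔTreg cells. In fragments that ratio was 0.315 times the WT value (0.294 to 0.337).

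Of the receptors that compete for the poliovirus receptor and nectins, *Cd96* and *Tigit* were higher in USP21-ΔTreg cells on both scales and *Cd226* was not. *Cd96*, on the minus strand of chromosome 16 at 46035657 to 46120248, stood at 35.7 FPKM in WT Treg cells (2324 fragments) and 107.9 in USP21-ΔTreg cells (6045 fragments). Its ratio was 3.02 on FPKM + 0.1 and 2.32 on scaled counts (2.21 to 2.43), and 170 of the genes kept had a higher ratio on FPKM. *Tigit*, which delivers an inhibitory signal and lies on the same strand at 43648861 to 43664184, stood at 31.6 FPKM in WT Treg cells (653 fragments) and 69.4 in USP21-ΔTreg cells (1465 fragments). The ratio of *Tigit* was 2.19 on FPKM + 0.1 and 2.0004 on scaled counts (1.82 to 2.20), at the limit. *Cd226*, the costimulatory member on chromosome 18, stood at 40.1 FPKM in WT Treg cells (2859 fragments) and 45.8 in USP21-ΔTreg cells (2635 fragments). The ratio of *Cd226* was 1.14 on FPKM + 0.1 and 0.822 on scaled counts (0.779 to 0.867), so its direction depended on the scale.

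The inhibitory *Tigit* stood below the costimulatory *Cd226* in the WT library and above it in the USP21-ΔTreg library. *Tigit* relative to *Cd226* was 0.787 on FPKM in the WT library and 1.52 in USP21-ΔTreg cells, and the fragment ratio was 2.43 times as high (2.19 to 2.71). *Cd96* relative to *Cd226* was 0.889 on FPKM in the WT library and 2.36 in USP21-ΔTreg cells, with a fragment ratio 2.82 times as high (2.63 to 3.03). *Tigit* relative to *Cd96* was 0.885 and 0.643 on FPKM, with a fragment ratio of 0.863 times the WT value (0.777 to 0.959). NK and CD8 T cells also express *Cd96*, *Tigit* and *Cd226*, and their 8 markers summed to 22.2 and 60.1 FPKM as given above, against 107.4 and 223 FPKM for these 3 receptors. Whether such cells added to the receptor values was not tested.

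*Lag3* and *Havcr2*, markers of chronically stimulated T cells, were the receptors with the lowest levels in both libraries. *Lag3*, on the minus strand of chromosome 6 at 124904359 to 124911705, encodes a CD4-like receptor for MHC class II and stood at 8.69 FPKM in WT Treg cells (269 fragments) and 10.01 in USP21-ΔTreg cells (347 fragments). Its ratio was 1.15 on FPKM + 0.1 and 1.15 on scaled counts. On scaled counts the interval of 0.978 to 1.35 held 1, so the difference on that scale was within counting error. *Havcr2*, on the plus strand of chromosome 11 at 46454931 to 46481254, encodes TIM-3 and stood at 2.80 FPKM in WT Treg cells (231 fragments) and 1.56 in USP21-ΔTreg cells (120 fragments). The ratio of *Havcr2* was 0.573 on FPKM + 0.1 and 0.463 on scaled counts (0.368 to 0.580), the widest relative interval among the receptors that excluded 1. *Pdcd1* relative to *Lag3* was 17.2 on FPKM in the WT library and 30.4 in USP21-ΔTreg cells, with a fragment ratio 1.67 times as high (1.42 to 1.97). *Pdcd1*, *Lag3* and *Havcr2*, often measured together, thus stood at 3 different ratios.

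**Figure D2:**
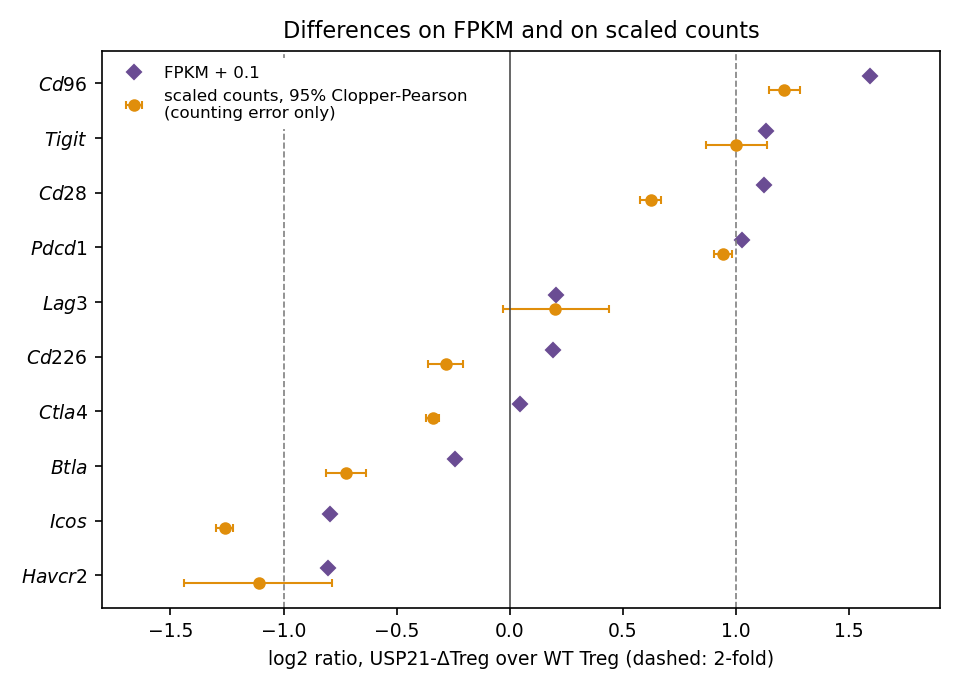
Log2 ratio of USP21-ΔTreg over WT Treg for each receptor on FPKM + 0.1 (diamonds) and on scaled counts (circles, with 95% Clopper-Pearson intervals for counting error only), with dashed lines at 2-fold. *Cd96* lies past the upper line on both scales, the *Tigit* circle lies on it, *Ctla4* and *Cd226* lie on different sides of 0 on the 2 scales, and the *Lag3* interval crosses 0.

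By level, *Ctla4* led in both libraries, with 45.9% of the summed FPKM of the 10 receptors in the WT library and 39.2% in USP21-ΔTreg cells. In WT Treg cells the order was *Ctla4*, *Icos*, *Pdcd1*, *Cd28*, *Cd226*, *Cd96*, *Tigit*, *Btla*, *Lag3* and *Havcr2*. *Tigit* (29.2 to 34.1 FPKM) and *Btla* (27.3 to 29.5) were the only neighbours in that order whose counting intervals overlapped. In USP21-ΔTreg cells *Pdcd1* stood above *Icos*, and *Cd96* and *Tigit* stood above *Cd226*, and no neighbours overlapped. *Pdcd1* made up 13.3% of the sum in the WT library and 22.4% in USP21-ΔTreg cells, whereas *Icos* made up 23.0% and 10.9%. *Cd28* made up 4.71% and 8.50%, and *Cd96* made up 3.17% and 7.94%. Summed by role, the costimulatory *Cd28*, *Icos* and *Cd226* held 352 FPKM in the WT library and 310.2 in USP21-ΔTreg cells, or 31.3% and 22.8% of the receptors. The other 7 genes were counted as coinhibitory, *Cd96* (35.7 and 107.9 FPKM) among them, although no role is given to it above. They held 773 FPKM in the WT library and 1049 in USP21-ΔTreg cells. These sums turn mainly on *Icos* on the costimulatory side and on *Pdcd1* on the coinhibitory side, the genes with the largest FPKM differences in each role.

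The receptors were also read against *Cd4*, whose product was a marker of the sort, and against *Foxp3*. In these ratios the scale between libraries again drops out. Per *Cd4*, 4 receptors were higher in USP21-ΔTreg cells and 6 were lower, and no interval held 1. *Cd96* was at 1.63 times its WT value per *Cd4* (1.54 to 1.72), *Tigit* at 1.40 (1.28 to 1.55), *Pdcd1* at 1.35 (1.30 to 1.40) and *Cd28* at 1.08 (1.04 to 1.13). *Ctla4* was at 0.554 (0.538 to 0.571) and *Icos* was lowest at 0.293 (0.283 to 0.303). Per *Foxp3*, 8 receptors were higher, *Icos* was lower and the interval of *Havcr2* held 1. *Cd96* was at 4.20 times its WT value per *Foxp3* (3.95 to 4.46), *Ctla4* at 1.43 (1.37 to 1.49) and *Icos* at 0.756 (0.723 to 0.790). Both reference genes themselves differed between the libraries, with log2 ratios on FPKM of 0.62 for *Cd4* and −0.73 for *Foxp3*. *Cd96*, *Tigit*, *Pdcd1* and *Cd28* stood above 1 with either reference and *Icos* below 1 with either.

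**Figure D3:**
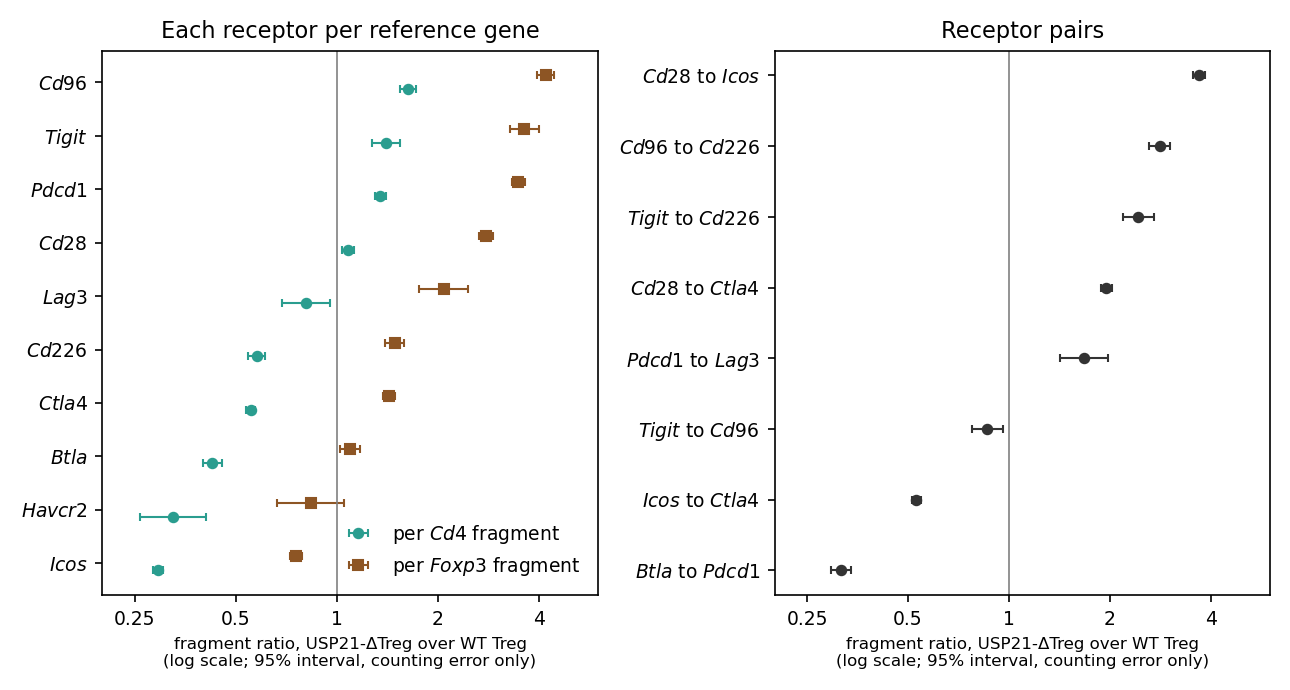
Ratios within each library, USP21-ΔTreg over WT Treg on a log2 axis, for the 8 receptor pairs and for each receptor per *Cd4* and per *Foxp3*, with exact 95% intervals (counting error only). *Cd28* per *Icos* is the highest pair at 3.69, and *Cd96* is the highest receptor with either reference gene.

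The gap between the 2 scales was not the same for all receptors. The log2 ratio on FPKM exceeded that on scaled counts by 0.50 for *Cd28*, 0.48 for *Btla*, 0.47 for *Cd226* and 0.46 for *Icos*, whose longest transcripts have a GC content of 35.0% to 43.0%. The gap was 0.08 for *Pdcd1* and 0.002 for *Lag3*, with a GC content of 54.6% and 59.9%. The same gradient ran through all genes, with a median gap of 0.44 in the lowest eighth by GC content and −0.03 in the highest. A regression on GC content and transcript length also took out the mean log2 ratio of the genes fitted. After it, the log2 ratios on FPKM were 1.43 for *Cd96*, 1.20 for *Tigit* and 1.09 for *Pdcd1*, each past 2-fold, and 0.75 for *Cd28*. *Icos*, at −1.07, was then past 2-fold lower. Centring on the median of all genes alone gave 1.40 for *Cd96*, 0.94 for *Tigit*, 0.83 for *Pdcd1*, 0.93 for *Cd28* and −0.99 for *Icos*. The receptors with a low GC content, *Cd28* among them, are therefore those whose ratio depends most on the scale. This gap does not drop out of ratios within a library: *Tigit* relative to *Cd226* was 1.93 times as high on FPKM, against 2.43 in fragments, and *Icos* per *Foxp3* was 0.957 times its WT value on FPKM, against 0.756.

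**Figure D4:**
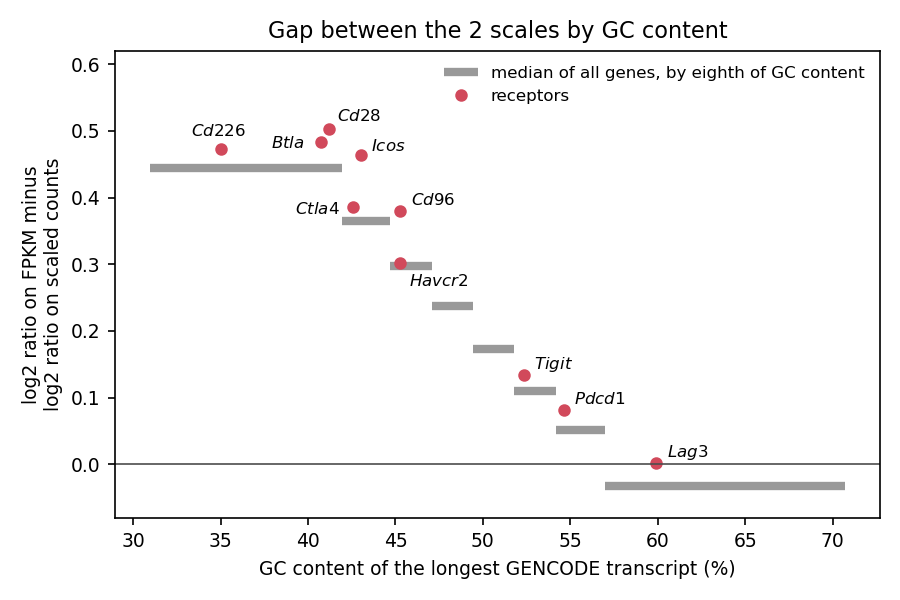
Gap between the log2 ratio on FPKM and that on scaled counts against the GC content of the longest GENCODE transcript, for the 10 receptors (points) and as the median of all genes in each eighth of GC content (bars). *Cd28* has the widest gap of the receptors at 0.50 and *Lag3* the narrowest at 0.002, along the slope of the bars.

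Among the ligands of these receptors, 10 of 15 listed genes passed the level filter, with 0 at least 2-fold higher, 1 lower and a median log2 ratio of −0.07 on FPKM. Of all genes kept, 7.78% were at least 2-fold higher on FPKM and 6.2% at least 2-fold lower. *Cd274*, which encodes the PD-1 ligand PD-L1, stood at 35.3 FPKM in the WT library and 12.9 in USP21-ΔTreg cells, a log2 ratio of −1.45, while its receptor gene *Pdcd1* stood higher. *Hmgb1*, a ligand of TIM-3, had the highest level of the list at 121 and 192 FPKM, and *Lgals9*, the galectin ligand of TIM-3, stood at 45.9 and 31.5. *Pvr*, the shared ligand of TIGIT, CD96 and CD226, was chosen after its values were seen, and stood at 16.7 and 9.22 FPKM, past 2-fold lower on scaled counts only (log2 ratio −1.12). All 19 genes listed for CD28 and ICOS signalling passed the filter, with 1 higher, 0 lower and a median of 0.05. The 1 was *Malt1*, the paracaspase that carries the signal of CD28 to NF-κB, at 38.0 FPKM in the WT library and 84.5 in USP21-ΔTreg cells. On scaled counts its log2 ratio was 0.75 and no gene of this list was past 2-fold. The kinase genes *Lck*, at 171 and 180 FPKM, and *Pik3cd*, at 93.6 and 72.3, had the highest levels there.

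Of 10 genes for signalling below the inhibitory receptors, 2 were higher, 0 were lower and the median was 0.09. The shares of all genes on FPKM were 7.78% higher and 6.2% lower. *Sh2d1a*, which encodes the SLAM adaptor SAP, stood at 78.8 FPKM in the WT library and 197 in USP21-ΔTreg cells, higher on scaled counts too (log2 ratio 1.10). *Cblb*, a ubiquitin ligase that restrains CD28 signals, stood at 20.6 and 49.0 FPKM, past 2-fold on FPKM only (log2 ratio 0.90 on scaled counts). *Fyn*, which encodes a Src family kinase and has the highest level in this list after *Sh2d1a*, stood at 78.4 and 101 FPKM. Of 13 genes for the trafficking of CTLA-4, 12 passed the filter and none was 2-fold apart on either scale, with a median of −0.14. *Arf1* and the clathrin adaptor gene *Ap2s1* had the highest levels, at 194 and 106 FPKM in the WT library and 166 and 78.9 in USP21-ΔTreg cells.

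Of 13 transcription factors known to act on genes of this kind, 1 was higher, 4 were lower and the median was −0.27. For all genes, 7.78% were higher, 6.2% were lower and the median was 0.20. *Irf4*, which drives effector Treg programmes, stood at 27.5 FPKM in the WT library and 6.77 in USP21-ΔTreg cells, a log2 ratio of −2.01. *Nr4a1*, an early gene of T-cell receptor signals, stood at 11.8 and 3.42 FPKM. *Batf*, the AP-1 partner of IRF4, had the highest WT level of the list at 205 FPKM, against 70.0 in USP21-ΔTreg cells. *Bcl6*, the factor of follicular T cells, was the 1 that was higher, at 4.78 and 14.0 FPKM. *Stat5b*, which acts below the IL-2 receptor, stood at 139 and 184 FPKM, less than 2-fold apart. No step from any of these factors to a receptor gene was tested.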

How the data were processed

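RNA of CD4+CD25hiYFP+ Treg cells was sequenced by the authors, 1 library per genotype. The labels and the methods of the study name different kits for extraction and library preparation, and only the methods call the libraries strand-specific. Reads were mapped to mm10 with TopHat2 2.0.9 and quantified with Cufflinks 2.1.1, per the labels. The authors deposited FPKM values and estimated counts that they had scaled between the libraries. The scaled counts were divided by the commonest value above 0 in each library (1.03 in WT Treg, 0.918 in USP21-ΔTreg) and rounded to fragments. Of the values above 0, 97.2% in each library came out whole within 0.02.

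Log2 ratios used FPKM + 0.1, a mean of at least 1 FPKM and a limit of 2-fold. For counts, 1 fragment was added. Clopper-Pearson intervals served for ratios of counts, exact Poisson intervals for levels and conditional exact intervals of the odds ratio for ratios within libraries. GC content came from GENCODE M21 by symbol, for 10340 of the 10948 genes kept. Values were computed with scipy 1.17.1, numpy 2.4.6 and pandas 2.3.3 under Python 3.11.15, figures with matplotlib 3.10.9, and the steps were tested on simulated data. The named genes are all 10 receptors, up to 4 genes at least 2-fold apart and up to 2 of highest mean FPKM per list, and *Usp21*, *Foxp3*, *Il2ra*, *Cd4* and *Cd3e*. The receptors, lists and alternatives were chosen with earlier results of these data known. Alternatives were other pseudocounts, filters, fold limits and scalings, scaled counts, and a correction for GC content and transcript length. That correction also removed the mean log2 ratio of the genes fitted.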

Additional observations from a re-analysis of the deposited data

How the results depend on the processing

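The count of 4 receptors at least 2-fold higher was also 4 with a pseudocount of 1 or 0.01 FPKM, with equal FPKM sums, with a minimum mean of 5 FPKM, with no filter and with a 1.5-fold limit. It was 3 with upper quartile scaling and with the correction for GC content and length, and 1 after centring on the median, on scaled counts and with a 3-fold limit, each time *Cd96*. On scaled counts *Tigit*, at a ratio of 2.0004, was under the limit only through the added fragment. The count of receptors at least 2-fold lower, 0 on FPKM, was 2 on scaled counts, 1 after the GC and length correction and 2 with a 1.5-fold limit. The shares of all genes were 7.78% higher and 6.2% lower on FPKM, and 4.34% and 7.93% on scaled counts. They were not computed at the other settings, so the counts of receptors there have no background beside them. The median log2 ratio of the receptors, 0.20, was 0.00081 after centring, −0.041 on scaled counts and 0.070 after the GC and length correction. Over the 8 settings that gave each receptor a value, *Cd96* was past 2-fold in 8 (1.21 to 1.62), *Tigit* in 6, and *Cd28* and *Pdcd1* in 5 each. *Ctla4* was positive in 4 of 8 and *Cd226* in 5 of 8. *Icos*, *Havcr2* and *Btla* were negative in all 8. The cause of these moves was not tested. No paired analysis was possible because there was 1 library per genotype. For the same reason no library could be left out, and the spread between mice is unknown. Depth limits *Havcr2* and *Lag3* most, with 120 to 347 fragments per library.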

Other observations

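Most of the other immunoglobulin superfamily and inhibitory receptors of T cells, outside the 10 described, were less than 2-fold apart. Of 22 listed genes, 17 passed the level filter, with 3 at least 2-fold higher, 1 lower, 13 between the limits and a median log2 ratio of 0.60 on FPKM and 0.38 on scaled counts. For all genes the medians were 0.20 and −0.01, and for 5 T cell markers, *Cd5* among them, 0.64 and 0.53. The upper limit was reached by 7.78% of all 10948 genes on FPKM and by 4.34% on scaled counts. The lower limit was reached by 6.2% on FPKM and by 7.93% on scaled counts. *Lax1*, an adaptor that limits antigen receptor signals, stood at 16.9 FPKM in the WT library and 39.8 in USP21-ΔTreg cells. *Cd101*, an inhibitory receptor found on Treg and memory cells, stood at 5.67 and 12.4 FPKM. *Crtam*, a receptor of activated NK and CD8 T cells, stood at 0.440 and 1.82 FPKM, on 24 and 95 fragments. *Cd200*, the ligand of an inhibitory receptor of myeloid cells, stood at 32.7 and 15.9 FPKM. These 4 genes were past 2-fold on both scales. *Cd2*, the adhesion receptor with the highest level of the list, stood at 565 and 486 FPKM, and *Cd5*, which dampens T-cell receptor signals, at 131 and 204. As with the 10 receptors, 1 library per genotype gives no measure of the spread between mice.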
